A study of Mus musculus with 58 samples.

Results

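The 8 genes described here belong to cholesterol synthesis and its control by the transcription factor SREBP2, and were chosen by their symbols in the table of read counts of mouse retina. All 8 were found among the 52459 genes of the table, and all 8 were among the 19120 genes whose median normalised read count over all libraries was above 4, the minimum used for every test. Retinas came from male Ins2Akita heterozygous mice, called diabetic here, and from male littermates without the mutation on the C57BL/6 background, called control, all at 4 months of age. The Ins2Akita mutation makes the insulin 2 protein misfold and damages beta cells from early life, so the model is one of insulin deficiency, and only males were studied. Mice lived in a light/dark cycle and were killed at ZT1, ZT5, ZT9, ZT13, ZT17 or ZT21, with ZT counted in hours from the onset of light. Each library was made from a single retina as ribosomal-RNA-depleted total RNA, with 5, 6, 5, 5, 5 and 4 control libraries and 5, 5, 5, 4, 4 and 5 diabetic libraries at the 6 time points, 58 in all.

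Cells make cholesterol from acetyl-CoA in a long series of steps. Hmgcs1 makes HMG-CoA early in the pathway, Idi1 interconverts the isoprenoid building blocks, Fdft1 joins farnesyl groups into squalene, Sqle oxidises squalene, Lss closes the sterol rings to form lanosterol, and Cyp51 removes a methyl group from lanosterol. Srebf2 encodes SREBP2, which is held in the endoplasmic reticulum by INSIG proteins when sterols are plentiful and is released to the nucleus, where it activates the genes of the pathway, when sterols are scarce. Insig1 encodes one of these INSIG proteins and is itself a target of SREBP2. In the retina, Müller glia and photoreceptors are known sites of cholesterol production, and the tissue also takes up cholesterol from the blood.

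Because the members share a regulator that binds DNA at sterol regulatory elements, their promoters are shown first. Promoter sequences of 6 members (Srebf2, Hmgcs1, Idi1, Lss, Cyp51 and Insig1) were matched in RefSeq windows of 300 bases on GRCm38.p6, reaching from 250 bases before to 50 bases after the annotated start. The sequences below run 5′ to 3′ on the strand of the gene, from 250 bases before the RefSeq start up to the first annotated transcribed base in RefSeq or Gencode. The 3 promoters with a sterol regulatory octamer are shown together with those of Lss and Insig1, which are described at length below. Capitals mark the octamers TCACCCCA and TCACCTCA and the box CCAAT, on either strand, where CCAAT on the other strand reads ATTGG.
Srebf2, chr15:82147019-82147180, plus strand: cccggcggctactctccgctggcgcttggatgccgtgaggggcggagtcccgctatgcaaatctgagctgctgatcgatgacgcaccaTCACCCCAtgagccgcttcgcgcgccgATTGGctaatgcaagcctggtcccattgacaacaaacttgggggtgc
Hmgcs1, chr13:119690101-119690350, plus strand: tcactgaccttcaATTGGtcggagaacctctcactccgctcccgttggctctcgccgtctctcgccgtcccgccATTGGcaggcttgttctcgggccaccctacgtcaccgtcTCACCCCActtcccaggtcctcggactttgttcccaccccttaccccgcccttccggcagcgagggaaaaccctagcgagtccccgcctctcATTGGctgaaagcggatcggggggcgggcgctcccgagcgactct
Cyp51, chr5:4104747-4104947, minus strand: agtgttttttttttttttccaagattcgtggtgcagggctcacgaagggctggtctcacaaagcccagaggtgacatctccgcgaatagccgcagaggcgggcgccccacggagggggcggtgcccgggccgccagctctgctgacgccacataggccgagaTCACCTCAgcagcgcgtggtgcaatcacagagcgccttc
Lss, chr10:76531355-76531587, plus strand: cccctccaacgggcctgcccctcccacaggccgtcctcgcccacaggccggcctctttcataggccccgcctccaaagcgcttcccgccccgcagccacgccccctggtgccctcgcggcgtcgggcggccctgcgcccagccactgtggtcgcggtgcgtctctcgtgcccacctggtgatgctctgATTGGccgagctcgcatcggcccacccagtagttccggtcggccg
Insig1, chr5:28071162-28071362, plus strand: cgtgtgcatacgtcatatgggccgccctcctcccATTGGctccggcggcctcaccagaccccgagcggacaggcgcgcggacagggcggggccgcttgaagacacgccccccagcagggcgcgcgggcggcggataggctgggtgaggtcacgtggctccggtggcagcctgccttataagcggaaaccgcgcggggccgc

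The octamer TCACCCCA began 162 bases before the RefSeq start of Srebf2 and 137 bases before that of Hmgcs1, and was present in 1.56% of the 32851 promoter windows of the genome. Cyp51 held TCACCTCA 88 bases before its start, a sequence found in 1.17% of all windows. Every one of the 6 windows held CCAAT, the box bound by NF-Y, which in Cyp51 lies beyond the printed stretch, and GGGCGG, the box bound by SP1, which 37.4% and 35.7% of all windows hold. The E-box CACGTG was found in the window of Insig1 only among the 6, against 7.15% of all windows. These letters were searched on both strands, do not overlap each other in the printed stretches, and were chosen with the promoters in view. A match describes the sequence, and binding was not measured in these data.

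Members lay on 5 chromosomes (Gencode M21, GRCm38). Srebf2 (ENSMUSG00000022463) spans chr15:82147181-82205379 on the plus strand and Sqle (ENSMUSG00000022351) chr15:59315077-59331192 on the plus strand. Hmgcs1 (ENSMUSG00000093930) spans chr13:119690379-119708260 and Idi1 (ENSMUSG00000058258) chr13:8885501-8892451, both on the plus strand. Fdft1 (ENSMUSG00000021273) is at chr14:63145150-63179578 on the minus strand, Lss (ENSMUSG00000033105) at chr10:76531588-76557138 on the plus strand, Cyp51 (ENSMUSG00000001467) at chr5:4081145-4104746 on the minus strand and Insig1 (ENSMUSG00000045294) at chr5:28071363-28078662 on the plus strand. Exons of Fdft1 share 774 bases with the opposite-strand gene Ctsb and those of Cyp51 share 166 bases with the opposite-strand gene Akap9. Both partners are well expressed, with mean normalised read counts of 4487 and 3901, and since the strand setting of the counting is not stated, reads in the shared bases cannot be assigned with certainty. Exons of Hmgcs1, Idi1 and Lss share 557, 323 and 381 bases with opposite-strand non-coding genes, and the non-coding partner of Lss had a mean of 0.13 normalised read counts.

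Between 7773117 and 22147398 reads were counted in a library. The libraries carried the markers of retina, with a summed normalised read count of the 6 rod markers between 516418 and 782226. In 3 control libraries (ZT1 replicate 6, ZT17 replicate 5 and ZT21 replicate 2) the 6 lens markers summed to 18728 to 27222 normalised read counts, while no other library exceeded 567, and Lim2 was at 0 in every library. Calls over time points that were lost without these libraries are given with their value without them. Endothelial and pigment epithelium markers were expressed throughout and are given below beside the co-variation of the members.

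Hmgcs1, Srebf2 and Insig1 were the most strongly expressed members per length of transcript. On the scale of reads per kilobase of merged exons per 1000000 counted reads (RPKM, computed here from the counts), Hmgcs1 reached 27.9 ± 3.70 (SD, n = 58), Srebf2 25.2 ± 1.95 and Insig1 24.9 ± 3.58. Fdft1 followed at 13.0 ± 1.13 and Cyp51 at 12.3 ± 1.60, then Sqle at 7.94 ± 0.886, Lss at 6.34 ± 0.662 and Idi1 at 1.55 ± 0.396. Neighbours in this order were not all separated. Hmgcs1 was above Srebf2 in 42 of 58 libraries, Srebf2 above Insig1 in 29 and Fdft1 above Cyp51 in 35, whereas Insig1 was above Fdft1, Cyp51 above Sqle and Lss above Idi1 in all 58. The merged exons of Lss amount to 10787 bases, the longest of the members, so its level depends on which isoforms are made. Idi1 was covered by 33 to 147 reads per library, and its coefficient of variation among control libraries was 24.1%, compared with 8.47% to 11.7% for the other members.

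The first comparison asked whether the diabetic retina expresses the pathway at another level than the control retina. Over all time points, no member differed in the quasi-likelihood test of edgeR, and the normalised read counts of the genotypes overlapped for all 8 members. Sqle averaged 647 ± 56.0 normalised read counts (SD) over 30 control libraries and 623 ± 63.6 over 28 diabetic libraries, and Lss 971 ± 90.1 and 1003 ± 74.4. Srebf2 averaged 2653 ± 275 in control and 2592 ± 267 in diabetic retinas, Hmgcs1 1870 ± 220 and 1829 ± 210, and Insig1 1112 ± 124 and 1108 ± 157. The remaining members were equally close, with 804 ± 68.1 and 784 ± 81.3 for Fdft1, 788 ± 84.7 and 772 ± 85.3 for Cyp51, and 79.4 ± 19.2 and 76.8 ± 18.6 for Idi1. In bulk retina, fewer cells of a type and less RNA per cell cannot be told apart.

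The log2 fold changes of diabetic against control ran from -0.06 for Sqle to 0.05 for Lss, the only member above zero, with standard errors of 0.04 and 0.03. Adjusted p-values of edgeR (Benjamini-Hochberg over all genes tested) were 0.50 for Sqle, 0.54 for Lss and higher for the other members. With 0 members called at an adjusted p under 0.05, 0 had an unadjusted p under 0.05 and 0 were called by DESeq2, while 3% of the 19120 genes were called in this comparison. The median log2 fold change of the members was -0.03, compared with 0.00 for all genes tested. The 95% intervals of the ratio of diabetic to control stayed between 0.915 and 1.08 for the members other than Idi1, and between 0.847 and 1.0997 for Idi1. A p that misses the threshold does not show that the genotypes are alike within these intervals.

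**Figure D1:**
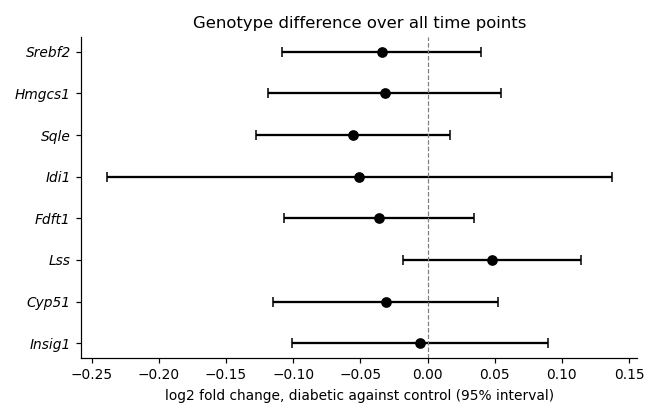
Log2 fold change of diabetic against control retinas over all time points for each of the 8 members (horizontal axis), with points for the edgeR estimate and bars for its 95% interval. All intervals include 0, and the widest belongs to Idi1, the member with the fewest reads.

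At single time points, none of the 48 differences (8 members at 6 time points) was called by edgeR, none had an unadjusted p under 0.05, and DESeq2 called 0. The smallest unadjusted p was 0.087 and the smallest adjusted p 0.89. Of all genes tested, 0.0105% (ZT1), 0.0209% (ZT5), 0.00523% (ZT9), 0% (ZT13), 0.173% (ZT17) and 0% (ZT21) were called. Differences ran from -0.27 to 0.17 on the log2 scale and were largest for Idi1. Standard errors of the other members lay between 0.05 and 0.11, with 95% intervals from -0.32 to 0.27, and those of Idi1 between 0.22 and 0.24. At ZT13 the members had a median log2 fold change of -0.11, the largest in size of the 6 time points, against -0.003 for all genes. There 6 of 8 were lower in diabetic retinas (Hmgcs1, Sqle, Idi1, Fdft1, Cyp51 and Insig1). For each of these, replicate 5 was the lowest of the 4 diabetic libraries, so their count is not one of independent genes. At ZT21 the median was 0.01, against -0.001 for all genes, and 3 of 8 were lower.

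Over the day, Lss changed in both genotypes and Cyp51 in control retinas, and the means of most members were lowest in the middle of the dark phase. The mean normalised read count was lowest at ZT17 for 6 of 8 members in control retinas (Hmgcs1, Sqle, Idi1, Lss, Cyp51 and Insig1) and for 5 of 8 in diabetic retinas, the same ones without Sqle, whose mean was lowest at ZT13. In control retinas, 5 members (Hmgcs1, Sqle, Lss, Cyp51 and Insig1) had their highest mean at ZT5. Srebf2 had its highest mean at ZT17 in both genotypes, where replicate 3 stood at 3419 in control and 3536 in diabetic retinas. Its medians were lower at ZT17 (2670 and 2600) than at ZT21 (2686 and 2728). These counts describe means and carry no test, and the tests of each member follow.

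**Figure D2:**
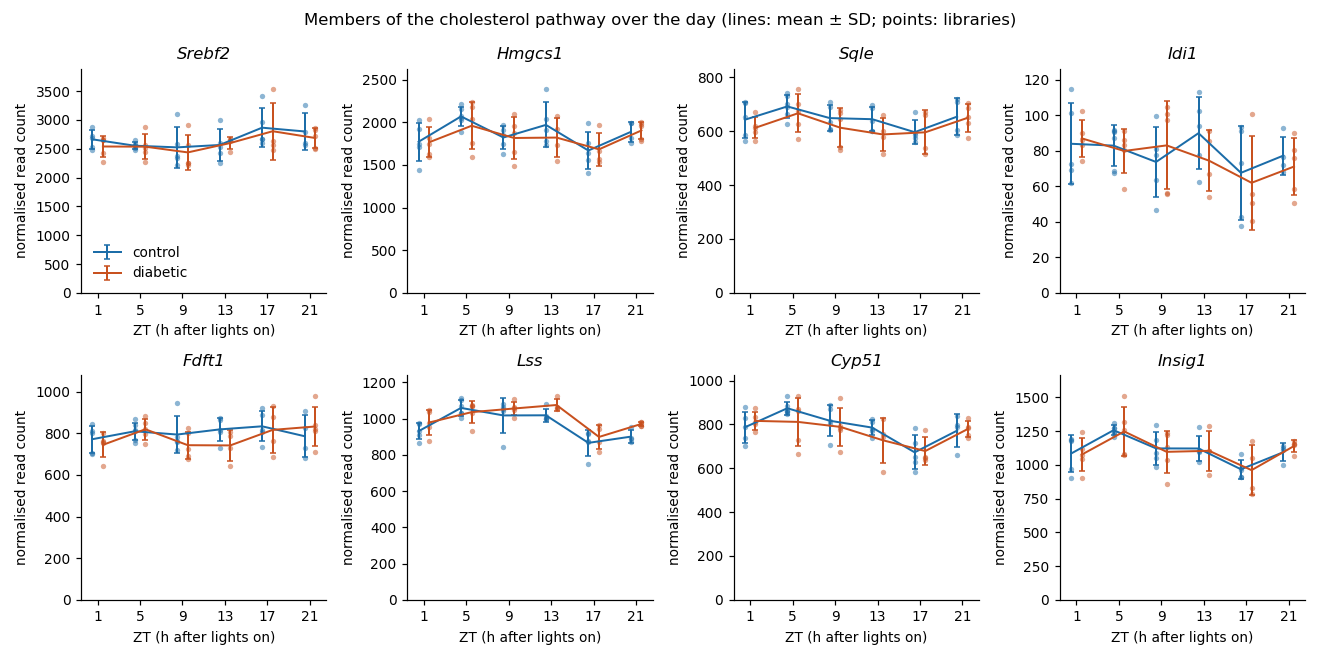
Normalised read counts (vertical axes, from 0) of the 8 members against ZT in hours, in control and diabetic retinas. Points are libraries, and lines join the means with bars of 1 SD, with 4 to 6 libraries per point. The means of Lss, Cyp51 and Insig1 are lowest at ZT17 in both genotypes, though diabetic libraries of Insig1 run from 783 to 1176 there. The mean of Srebf2 is highest at ZT17, with replicate 3 above the other libraries in each genotype.

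Lss, which makes lanosterol, had the clearest change over the day. In control retinas at ZT5 its normalised read count was 1006 in the lowest, 1052 in the median and 1114 in the highest of 6 libraries. At ZT17 the 5 control libraries held 914, 871, 921, 748 and 877. Every ZT5 library was therefore above every ZT17 library, and the means of 1059 ± 43.2 (SD, n = 6) and 866 ± 69.8 (SD, n = 5) differed by -0.29 on the log2 scale. In diabetic retinas the ZT5 libraries held 1072, 1034, 1070, 929 and 1074 and the ZT17 libraries 964, 944, 869 and 818, so that 1 ZT5 library reached into the range of ZT17. The highest diabetic mean was at ZT13, with 1075 ± 34.1 (SD, n = 4), and the lowest at ZT17, with 899 ± 67.6 (SD, n = 4). These times were picked as the extremes of Lss, and the pair carries no test.

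Cyp51, the lanosterol demethylase, followed a similar course in control retinas. Its 6 control libraries at ZT5 lay between 849 and 931 normalised read counts with a median of 862, and the 5 at ZT17 held 630, 783, 582, 715 and 654, again without overlap. The means were 874 ± 30.04 (SD, n = 6) and 673 ± 77.9 (SD, n = 5), a log2 ratio of -0.38. In diabetic retinas the ZT5 libraries of Cyp51 held 871, 862, 931, 667 and 728 and those of ZT17 held 777, 653, 648 and 637. These groups overlapped, and the spread at ZT5 was 110 (SD, n = 5), larger than in control retinas.

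Insig1, the sterol-responsive anchor of SREBP2, gave the third case without overlap in control retinas. Control libraries at ZT5 lay between 1205 and 1309 with a median of 1258, and those at ZT17 held 906, 1082, 976, 910 and 958. In diabetic retinas they held 1255, 1314, 1511, 1075 and 1080 at ZT5 and 1176, 1052, 830 and 783 at ZT17, which overlapped. In each genotype the log2 ratio of its ZT17 to its ZT5 mean was -0.38. Every ZT5 library exceeded every ZT17 library for 3 of 8 members in control retinas, compared with 3.4% of all genes tested, and for 0 of 8 in diabetic retinas, compared with 3.56%. Most members had their highest control mean at ZT5 and their lowest at ZT17. This pair of times therefore favours the members, and the counts carry no test.

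The F-test of edgeR over the 6 time points gave a change for Lss (adjusted p = 0.000336) and Cyp51 (adjusted p = 0.0197) in control retinas, 2 of 8 members where 9.1% of all genes were called. In diabetic retinas Lss alone was called (adjusted p = 0.0146), 1 of 8 where 10.1% of all genes were called. Insig1 had an adjusted p of 0.087 in control and 0.16 in diabetic retinas, Hmgcs1 0.15 and 0.64, and Cyp51 0.18 in diabetic retinas. Srebf2, Sqle, Idi1 and Fdft1 had adjusted p-values between 0.43 and 0.91 in the 2 genotypes. The call of Cyp51 rested on the ZT17 libraries, as it was lost in control retinas without ZT17 replicate 1 (adjusted p = 0.0724), replicate 3 (0.107) or replicate 5 (0.0525), and without the 3 libraries with lens markers (0.0506). The call of Lss in diabetic retinas was lost without ZT17 replicate 5 (0.0841) and when genes with low counts were kept in the adjustment (0.114).

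Rhythms were next sought with a re-implementation of the empirical JTK_CYCLE test, in which a gene was rhythmic with an unadjusted permutation p under 0.05 when its highest library was more than 25% above its lowest. In control retinas 4 of 8 members were rhythmic, with permutation p-values given in brackets, Lss (p = 5.1e-05), Cyp51 (p = 0.000994), Insig1 (p = 0.00223) and Srebf2 (p = 0.0166), compared with 21.8% of all genes tested. After adjustment over all genes, Lss, Cyp51 and Insig1 remained under 0.05 (0.00257, 0.0197 and 0.0324), 3 of 8 where 8.43% of all genes did, and Srebf2 had 0.116. In diabetic retinas 2 of 8 members were rhythmic by the permutation test, Lss (p = 0.000775) and Cyp51 (p = 0.0342), compared with 23.9% of all genes. Only Lss passed adjustment there (0.0151), 1 of 8 where 10.4% of all genes did. In control retinas the permutation p was 0.194 for Hmgcs1, 0.0663 for Sqle, 0.954 for Idi1 and 0.690 for Fdft1. In diabetic retinas the permutation p was 0.427 for Insig1 and for Fdft1, 0.235 for Srebf2, 0.686 for Hmgcs1, 0.379 for Sqle and 0.201 for Idi1. When the fold was taken between time point means, the rhythmic members were 2 in control (Cyp51 and Insig1) and 0 in diabetic retinas, so that Lss was lost in both genotypes. The call of Cyp51 in diabetic retinas was lost without any 1 of 9 libraries (permutation p from 0.0514 to 0.0806), among them ZT5 replicate 1, 2 or 3 and ZT17 replicate 3, 4 or 5. Sqle, at no call with all libraries, was rhythmic in control retinas without any 1 of 6 libraries (permutation p from 0.0249 to 0.0485).

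A cosine fitted by least squares placed the peak, or acrophase, of Hmgcs1, Sqle, Idi1, Lss, Cyp51 and Insig1 in the light phase in both genotypes. In control retinas the acrophase was ZT5.7 ± 0.83 h (SE) for Cyp51, ZT5.8 ± 1.0 h for Insig1 and ZT7.7 ± 0.66 h for Lss, with relative amplitudes of 10.01% ± 2.1, 9.26% ± 2.4 and 9.70% ± 1.7 of the mean. Hmgcs1 and Sqle, which were not rhythmic, had fitted peaks at ZT6.6 and ZT5.0 with amplitudes of 5.87% and 5.01%. Srebf2 peaked in the dark phase, at ZT19.6 ± 1.4 h with an amplitude of 6.48% ± 2.5. In diabetic retinas Lss peaked at ZT8.4 ± 0.97 h with an amplitude of 6.43% ± 1.6 and Cyp51 at ZT3.6 ± 1.2 h with 8.26% ± 2.7. The amplitudes of Idi1 (4.56% ± 6.3 in control, 13.0% ± 6.4 in diabetic retinas) and Fdft1 (2.54% ± 2.2 and 3.63% ± 2.7) had standard errors that were large against them. Idi1 had fitted peaks at ZT5.8 and ZT4.9, and Fdft1 had them in the dark phase, at ZT13.8 ± 3.4 h and ZT21.2 ± 3.0 h.

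**Figure D3:**
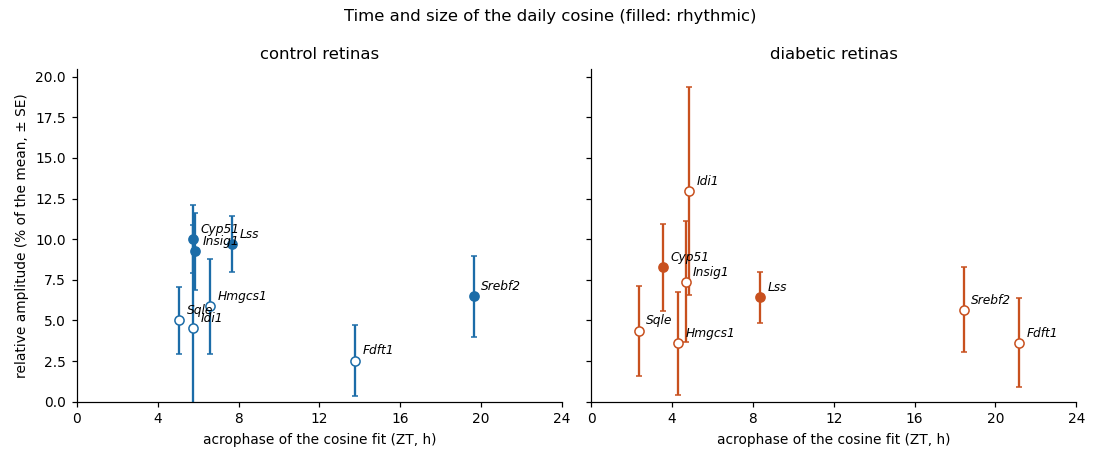
Relative amplitude in percent of the mean (vertical axis, bars of 1 SE) against acrophase in ZT hours (horizontal axis) of the cosine fitted to each of the 8 members, in control and diabetic retinas. Filled points were rhythmic by the empirical JTK_CYCLE rule. Fitted peaks of Cyp51, Insig1, Lss, Hmgcs1, Sqle and Idi1 lie in the light phase. Those of Srebf2, at ZT19.6 and ZT18.4, and of Fdft1 lie in the dark phase. Hmgcs1, Sqle, Idi1 and Fdft1 were rhythmic in neither genotype, and Insig1 and Srebf2 in control retinas only.

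Whether the rhythm of a member differed between genotypes was tested as the interaction of genotype with the cosine and sine terms. No member was called by edgeR, none had an unadjusted p under 0.05, DESeq2 called 0, and 0% of all genes tested were called. The smallest unadjusted p was 0.28, for Cyp51, whose acrophase was 2.2 h earlier and whose relative amplitude was 1.75 percentage points lower (SE 3.4) in diabetic retinas. Lss had a relative amplitude 3.27 percentage points lower in diabetic retinas (SE 2.3) and Insig1 one 1.89 points lower (SE 4.4), and the adjusted p of edgeR was 1.00 for each member. Fdft1 had the largest difference in acrophase, 7.4 h later in diabetic retinas, with an amplitude 1.09 points higher (SE 3.5). Hmgcs1, Sqle, Idi1 and Srebf2 had acrophases 2.3, 2.7, 0.91 and 1.2 h earlier in diabetic retinas. The standard errors of their acrophases were 1.9, 1.6, 5.5 and 1.4 h in control and 3.3, 2.3, 1.8 and 1.8 h in diabetic retinas. The rhythm calls of Insig1 and Srebf2 in control retinas and their absence in diabetic retinas are thus not shown to differ between genotypes.

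Of 13 other enzymes of sterol synthesis tested, 1 changed over time points in control retinas, where 9.1% of all genes did, Hsd17b7 (adjusted p = 0.0239), a ketosteroid reductase of the late pathway. In diabetic retinas 3 changed, where 10.1% of all genes did, Hsd17b7 (0.00737), Dhcr7 (0.0241), which makes cholesterol from its last precursor, and Pmvk (0.0378), a mevalonate pathway kinase. In diabetic retinas Dhcr7 and Pmvk had fitted peaks in the dark phase, at ZT18.7 and ZT20.8, and Hsd17b7 had its own at ZT5.6. Hsd17b7 averaged 238 ± 21.4 (SD, n = 6) at ZT5 and 172 ± 15.8 (SD, n = 5) at ZT17 in control retinas, and 241 ± 45.9 (SD, n = 5) and 156 ± 21.4 (SD, n = 4) in diabetic retinas. In control retinas the call of Hsd17b7 was lost without ZT5 replicate 1 (adjusted p = 0.0947) or ZT17 replicate 3 (0.0524), and without the libraries with lens markers (0.0581). In diabetic retinas the call of Pmvk was lost without any 1 of 9 libraries (0.0534 to 0.0831) and when genes with low counts were kept (0.131), and that of Dhcr7 without ZT17 replicate 3 (0.0949) or 5 (0.0603) or ZT21 replicate 3 (0.0562) or 4 (0.0539). By the JTK_CYCLE rule 5 of 13 were rhythmic in control retinas (Tm7sf2, Hsd17b7, Nsdhl, Acat2 and Fdps, with acrophases from ZT3.3 to ZT7.3) and 3 of 13 in diabetic retinas (Pmvk at ZT20.8, Hsd17b7 at ZT5.6 and Fdps at ZT10.0), compared with 21.8% and 23.9% of all genes. After adjustment 0 remained in control retinas and 1, Pmvk, in diabetic retinas, where 8.43% and 10.4% of all genes did.

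The mean was higher at ZT5 than at ZT17 for 9 of the 13 enzymes in each genotype, with median log2 ratios of ZT17 to ZT5 of -0.18 in control and -0.14 in diabetic retinas. The 8 members had medians of -0.29 and -0.21, with 6 and 7 of 8 higher at ZT5. Over all genes tested the medians were -0.02 and -0.01, and 52.6% and 51.0% were higher at ZT5. Since most members had their highest and lowest control means at these times, their ratios are a description and carry no test. Lbr, Pmvk, Dhcr7 and Ebp were the enzymes with a higher mean at ZT17, in both genotypes.

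**Figure D4:**
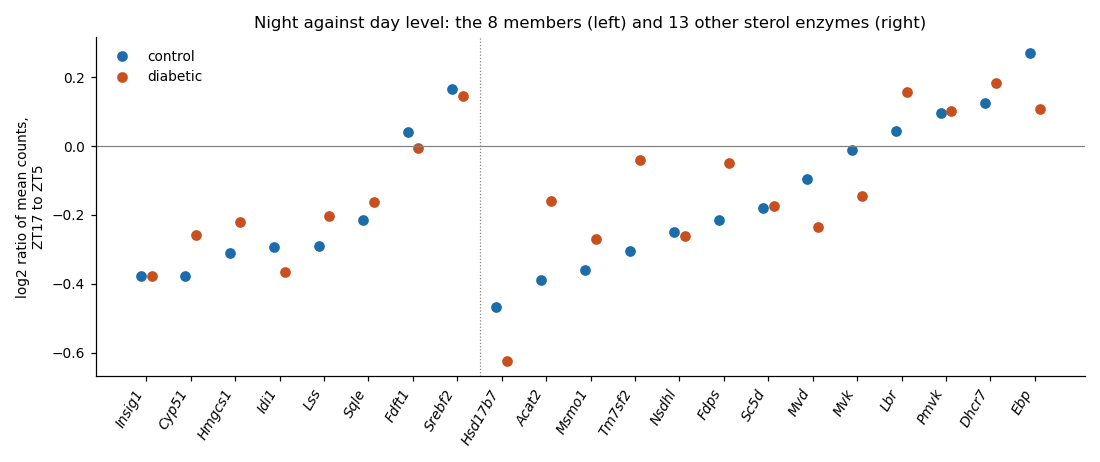
Log2 ratio of the mean normalised read count at ZT17 to that at ZT5 (vertical axis) for the 8 members on the left and 13 other enzymes of sterol synthesis on the right, ordered by the control value, in control and diabetic retinas. Most points lie below 0, down to Hsd17b7, while Srebf2 and 4 of the other enzymes lie above 0 in both genotypes.

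Among 9 genes of SREBP processing and sterol sensing, Rnf145, a ubiquitin ligase of the sterol response, changed in both genotypes (adjusted p = 1.84e-07 and 0.00015). Its level was higher in the dark phase, with 2107 ± 61.2 (SD, n = 6) at ZT5 and 2672 ± 129 (SD, n = 5) at ZT17 in control retinas and acrophases of ZT18.3 and ZT17.6. Mbtps1, the protease that starts the release of SREBP proteins, changed in diabetic retinas (adjusted p = 0.00216) with an acrophase of ZT7.9, a call lost when genes with low counts were kept (0.107), and had an adjusted p of 0.0502 in control retinas. Srebf1, the paralogue that drives fatty acid synthesis, changed in diabetic retinas (adjusted p = 0.0259) with an acrophase of ZT18.0, a call lost without any 1 of 4 libraries (0.0508 to 0.0682). Called over time points were thus 1 of 9 genes in control and 3 of 9 in diabetic retinas, against 9.1% and 10.1% of all genes. By the JTK_CYCLE rule 3 of 9 were rhythmic in each genotype (Rnf145, Mbtps1 and Srebf1), against 21.8% of all genes in control and 23.9% in diabetic retinas. After adjustment 2 of 9 remained in each genotype, where 8.43% and 10.4% of all genes did. The p of Rnf145 in both genotypes and of Mbtps1 in diabetic retinas was 1e-06, the smallest that the shuffled series can give.

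Of 4 further SREBP2 targets of sterol uptake and transport, none changed over time points in either genotype and none was rhythmic. Over all genes tested, 9.1% in control and 10.1% in diabetic retinas changed over time points, and 21.8% and 23.9% were rhythmic. The smallest adjusted p-values in edgeR were 0.312 for Npc2 and 0.360 for Tmem97 in control retinas, and those of diabetic retinas were 0.369 for Stard4 and 0.643 for Npc1. Of 8 genes of the isoprenoid branches, Fnta changed in control retinas (adjusted p = 0.0459) and Pdss1 in diabetic retinas (0.0377). This was 1 of 8 in each genotype, against 9.1% and 10.1% of all genes. Rhythmic were 2 and 4 of 8 (Fnta and Pdss1 in both, with Coq2 and Pdss2 added in diabetic retinas), against 21.8% and 23.9% of all genes. After adjustment 0 remained in control retinas and 1, Pdss1, in diabetic retinas, where 8.43% and 10.4% of all genes did. The calls of Fnta and Pdss1 were lost without any 1 of 27 and 14 libraries (adjusted p up to 0.101 and 0.175) and when genes with low counts were kept (0.150 and 0.0602). That of Fnta was also lost with DESeq2 size factors (0.0549), with the replicate block (0.0575) and without the libraries with lens markers (0.0844). Of 10 tested genes of efflux, oxysterol sensing and esterification, with Ch25h below the minimum, Abca1, a cholesterol exporter, and Mylip, a ubiquitin ligase that limits sterol uptake, changed in both genotypes (adjusted p = 0.000283 and 0.00166 for Abca1, 0.00073 and 0.000906 for Mylip). Both were high in the light phase, with acrophases of ZT7.8 and ZT7.4 for Abca1 and ZT6.0 in both genotypes for Mylip. Abca1 averaged 1302 ± 43.3 (SD, n = 6) at ZT5 and 995 ± 119 (SD, n = 5) at ZT17 in control retinas. Abcg4 changed in control retinas (adjusted p = 0.0352) with an acrophase of ZT18.7, a call lost without any 1 of 6 libraries (0.0510 to 0.165) and without the libraries with lens markers (0.0564). Abca1, Mylip and Abcg4 in control and Abca1 and Mylip in diabetic retinas were the rhythmic ones of this list, 3 and 2 of 10 against 21.8% and 23.9% of all genes. The same genes changed over time points, 3 and 2 of 10 against 9.1% and 10.1% of all genes. After adjustment 2 of 10 remained rhythmic in each genotype, where 8.43% and 10.4% of all genes did.

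Between genotypes over all time points, 1 of 4 genes was called among those of uptake and transport and 1 of 8 among those of the isoprenoid branches. In the other 3 lists 0 were called, while 3% of all genes tested were called in this comparison. Tmem97, a sterol-regulated membrane protein, was lower in diabetic retinas, with a log2 fold change of -0.17 ± 0.05 (SE) (113 ± 14.1 against 101 ± 13.5 normalised read counts, adjusted p = 0.0404 in edgeR). Coq2, an enzyme of ubiquinone synthesis, was lower too, with a log2 fold change of -0.09 ± 0.03 (SE) (537 ± 37.7 against 504 ± 32.5, adjusted p = 0.0432). Both calls were close to the threshold. That of Tmem97 was lost without any 1 of 24 of the 58 libraries (adjusted p from 0.0506 to 0.0629) without the libraries with lens markers (0.0896), with the replicate block (0.0686) and when genes with low counts were kept (0.0772). That of Coq2 was lost without any 1 of 28 (0.05002 to 0.0716) and when genes with low counts were kept (0.0744). The smallest unadjusted p-values elsewhere were 0.0179 for Ebp and 0.129 for Msmo1 among the enzymes, 0.0538 for Rnf145 and 0.0565 for Srebf1 among the sensing genes, and 0.0026 for Abca1 and 0.00845 for Mylip among the efflux genes, none of which passed adjustment in edgeR. No gene of the 5 lists was called at a single time point or in the interaction, where the smallest unadjusted p was 0.143, for Rnf145.

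Across the 58 libraries the members did not move as one group. Spearman's rho between members, given as a description since libraries share depth and normalisation, was 0.85 for Hmgcs1 and Insig1, 0.78 for Sqle and Insig1, 0.76 for Hmgcs1 and Cyp51, 0.73 for Cyp51 and Insig1 and 0.71 for Hmgcs1 and Sqle. These values stayed between 0.64 and 0.80 when each library's deviation from the mean of its own genotype and time point was used. Lss, the member with the clearest change over time, had rho of 0.42 with Insig1 and 0.32 with Cyp51, but 0.17 and -0.02 for the deviations. Fdft1 went with Srebf2, with rho of 0.46, and 0.60 for the deviations. Srebf2 had negative rho with Hmgcs1, Sqle, Idi1, Lss, Cyp51 and Insig1, from -0.43 to -0.16. For the deviations these ran from -0.41 with Idi1 to 0.11 with Insig1, with -0.02 for Lss and -0.04 for Sqle.

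**Figure D5:**
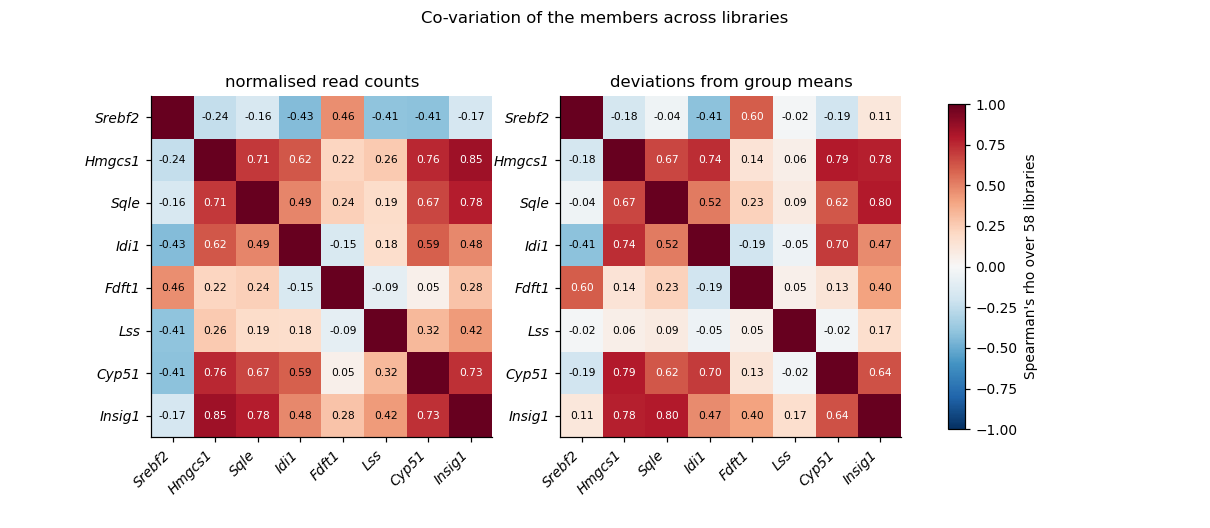
Spearman's rho between each pair of the 8 members over 58 libraries, for normalised read counts (left) and for deviations from the mean of the library's genotype and time point (right), with colour from -1 to 1. Hmgcs1, Sqle, Idi1, Cyp51 and Insig1 form a block of positive values on both sides, and the row of Lss fades to near 0 on the right.

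The mean of the members' standardised log2 normalised read counts had a rho of 0.59 with the summed endothelial markers, 0.44 with those of ganglion cells, -0.37 with those of lens and -0.37 with the total count of the library. Total counts in control retinas ran from 7773117 to 18020493 at ZT5 and from 15656408 to 19929725 at ZT17. In diabetic retinas they ran from 8588878 to 18287074 and from 18193309 to 20301393, so libraries were deeper at ZT17. Endothelial markers, 4 of 4 of which were tested, had a median sum of 3397 at ZT5 and 3044 at ZT17 in control retinas and of 3275 and 3026 in diabetic retinas. This sum was mostly Kdr, with a mean of 2824 normalised read counts in control retinas against 113 for Cldn5, 160 for Pecam1 and 89.4 for Cdh5. Kdr had its fitted peak at ZT5.2 in control retinas and the others at ZT22.7, ZT14.5 and ZT19.8. The ganglion cell sum was mostly Nefl, with a mean of 5012 in control retinas against 428 for Pou4f1, 139 for Pou4f2 and 386 for Rbpms. The 6 pigment epithelium markers had median sums of 1208 and 2287 at ZT5 and ZT17 in control retinas, while those of diabetic retinas were 510 and 1998, and 3 of 6 changed over time points in each genotype. Their sum had a rho of -0.12 with the mean of the members, that of rods 0.07 and that of Müller glia -0.13. The part of these markers, and of the total count, in the time course of the members was not tested. Without the 3 libraries with lens markers, the same 4 members as before stayed rhythmic in control retinas.

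The genes outside all lists whose counts ran most closely with that mean were Ric3 (rho 0.80), Nceh1 (0.75), Emc7 (0.74), Tmem18 (0.71) and Asrgl1 (0.71) over 58 libraries. Nceh1 encodes a neutral cholesterol ester hydrolase. Among the listed genes that are no members, Stard4 (0.73), Hsd17b7 (0.72), Acat2 (0.71), Msmo1 (0.68) and Sc5d (0.62) were the closest, and Abcg4 (-0.59) and Dhdds (-0.58) ran most against it.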

How the data were processed

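Single retinas of control and Ins2Akita mice were sequenced as ribosomal-RNA-depleted total RNA. The authors aligned the paired reads with STAR 2.7.4a to GRCm38.p5 with Gencode M15 and deposited raw counts per gene from HTSeq 0.11.1, neither normalised nor filtered, with the strand setting not given in the sources used here. Of 52459 rows, 15226 had no read and every one of 58 columns was used. Total counts ran from 7773117 to 22147398, so a gene such as Idi1, with 33 to 147 reads per library, is less precisely measured than the rest.

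Here, counts were divided by DESeq2 1.42.0 size factors (normalised read counts) and 19120 genes with a median above 4 were tested. Differential expression used edgeR 4.0.16 in R 4.3.3 (TMM factors, quasi-likelihood test, Benjamini-Hochberg adjustment, threshold 0.05), with 2 groups over all time points and 12 groups for single time points and for the F-test over time points. Rhythm used 30 waveforms of 24 h against 1000000 shuffled series (200000 for alternatives) in Python 3.11.15. The interaction test added genotype by cosine and sine. Scripts were tested on simulated data. Replicates were separate retinas, and whether any 2 came from littermates is not labelled, so p-values measure the spread between these retinas.

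The members and lists were chosen with earlier results of these data known. All members are covered in every comparison, at single time points by counts and ranges, and from each other list the genes past the threshold (up to 6, smallest p first) or else the 2 with the smallest p, except at single time points, where only counts are given, and in the interaction, where the smallest p over the lists is given. Alternatives were other scalings, tests and filters, a replicate block, and libraries or time points left out. Some genes of these lists are not reported here, and counts over the lists are without them. Leaving out the 3 libraries with lens markers was chosen after seeing the data. Replicate numbers were not used to pair retinas in the main tests, as what they stand for is not labelled. Of 26 same-numbered pairs, 15 had deviations correlated above 0.1, so a shared effect of the replicate number is not excluded. Calls over time points that change with the replicate block are given below.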

Additional observations from a re-analysis of the deposited data

Results flagged for a closer look

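Each member was examined in each of the 12 groups, 96 sets of 4 to 6 libraries, for a library far from the others by Dixon's test, which chance exceeds in about 1 in 20 sets, and 8 were found. Srebf2 reached 3536 normalised read counts in diabetic ZT17 replicate 3, above the next library at 2637. Fdft1 reached 948 in control ZT9 replicate 4, above 785. Lss was far from its group in 4 sets, at 845 in control ZT9 replicate 5 (next 1044), 1082 in control ZT13 replicate 5 (next 1013), 748 in control ZT17 replicate 4 (next 871) and 929 in diabetic ZT5 replicate 4 (next 1034). Cyp51 stood at 777 in diabetic ZT17 replicate 1 (next 653) and Insig1 at 1066 in diabetic ZT21 replicate 5 (next 1145). None of these 8 libraries was among those with lens markers.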

How the results depend on the processing

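No member was called between genotypes, over all time points or at a single one, or in the interaction, under any alternative run, each library left out included (0 members in each). Of the members' log2 fold changes over all time points, only that of Insig1, -0.0056, changed sign, to 0.016 with the replicate block and to between 0.000115 and 0.0103 without 1 of 12 libraries, and over all libraries left out it ran from -0.0243 to 0.0103. The F-test over time points called 2 members in control and 1 in diabetic retinas. These counts became 1 in control without the libraries with lens markers, where Cyp51 was lost, 0 in diabetic retinas with no filter on low counts, and ranged from 1 to 2 in control and 0 to 2 in diabetic retinas with 1 library left out. Without diabetic ZT17 replicate 1, Insig1 was called in diabetic retinas (adjusted p = 0.0382). The replicate block was a term for the replicate number over all 12 groups, and what that number stands for is not labelled. With the block, members called were 4 in control and 2 in diabetic retinas. Hmgcs1 and Insig1 were added (adjusted p = 0.0216 and 0.0109 in control, and 0.0328 for Insig1 in diabetic retinas). The block added or ended no other call of a member. Over all genes, calls over time points rose with it from 1740 to 2456 in control and from 1933 to 2412 in diabetic retinas. Over the 26 pairs of same-numbered retinas, correlations of deviations ran from -0.20 to 0.55, with a median of 0.11. Rhythmic members, 4 in control and 2 in diabetic retinas, became 2 and 0 when the fold was taken between time point means, with Lss lost in both genotypes, Srebf2 in control and Cyp51 in diabetic retinas. In control retinas they were 3 after adjustment and 3 in the edgeR cosine model (Srebf2 lost), 1 without ZT5, 2 without ZT17, 6 without ZT1 (Hmgcs1 and Sqle added), 5 without ZT13 (Hmgcs1 added), 5 without ZT21 (Sqle added) and 4 to 5 with 1 library left out, where Sqle was added without any of 6 libraries. In diabetic retinas they were 1 after adjustment, 1 in the edgeR cosine model, 1 each without ZT1, ZT13, ZT17 or ZT21, and 1 to 2 with 1 library left out. There Cyp51 was lost (p from 0.0514 to 0.0806) without ZT1 replicate 3, ZT5 replicate 1, 2 or 3, ZT13 replicate 4 or 5, or ZT17 replicate 3, 4 or 5. The cause of these changes was not tested.

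Counts over all genes also moved. With 1 library left out, genes called at ZT17 ran from 3 to 98, at ZT9 from 0 to 4, at ZT1 from 0 to 4 and at ZT5 from 2 to 8. The 574 genes called between genotypes became 920 with time point as an additive term. At single time points DESeq2 called 6, 24, 4, 1, 84 and 9 genes against 2, 4, 1, 0, 33 and 0, the block 10 at ZT5, 2 at ZT9 and 61 at ZT17, all genes without a filter gave 1 at ZT1, 3 at ZT9 and 1 at ZT21, and the libraries without lens markers 4 at ZT1 and 0 at ZT9. The interaction called 3 in DESeq2 and 3 without a filter against 0. Rhythmic genes, 4172 in control and 4565 in diabetic retinas, became 1573 and 1967 after adjustment with the fold rule kept. The shares of 8.43% and 10.4% given above are by adjusted p alone, 1611 and 1986 genes. Rhythmic genes were 2532 and 2710 with the fold of time point means, and 2077 and 2352 in the edgeR cosine model. Depth limits Idi1 most, with as few as 33 reads in a library.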
